A study of Mus musculus with 8 samples.

Results

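The transcripts described are those of 9 costimulatory and checkpoint ligands that macrophages show to lymphocytes: Cd80, Cd86, Cd83, Icosl, Cd274 (which encodes PD-L1), Pdcd1lg2 (PD-L2), Il15, its presenting chain Il15ra, and Slamf1. They were listed by gene symbol, with no threshold on their values, and each matched 1 of the 55801 genes in the deposited table. The cells were peritoneal macrophages of male C57BL/6 mice of 6 to 8 weeks, collected 72 h after an injection of thioglycollate into the peritoneum, so all groups share this prior inflammatory stimulus. Cells received DMSO vehicle (NC), vehicle and then LPS, the compound C498 alone, or C498 and then LPS (C498+LPS), with C498 at 15 µM given 0.5 h before LPS, and LPS, the bacterial product that Toll-like receptor 4 senses, at 100 ng/ml for 4 h. Each of the 4 groups had 2 samples, and neither the labels nor the methods say whether these came from separate mice, so the p-values measure only the spread between these samples, which may be technical.

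A T cell that meets its antigen is instructed by further ligands on the presenting cell. CD80 and CD86 engage CD28, which promotes activation, and CTLA-4, which restrains it, while ICOS ligand sustains T cells that already express ICOS. PD-L1 and PD-L2 bind PD-1 and dampen the response, and CD83 is a maturation marker of dendritic cells that keeps MHC class II and CD86 on the surface. IL-15 is held on the presenting cell by IL-15 receptor alpha and shown from there to NK cells and memory T cells, and SLAMF1 is a self-ligand on lymphocytes and phagocytes. In macrophages these genes are known to be raised by Toll-like receptor and interferon signaling to different degrees, so that the surface of an activated macrophage carries activating and restraining ligands together.

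Cd274 and Pdcd1lg2 lie side by side on chromosome 19 (GENCODE M21 on GRCm38, plus strand), Cd274 from 29367455 to 29388095 and Pdcd1lg2 from 29410919 to 29471161, with 22823 bases between them. Cd80 (38455561 to 38496335, plus strand) and Cd86 (36603869 to 36666081, minus strand) share chromosome 16 at a distance of 1789479 bases. Icosl is on chromosome 10 from 78069302 to 78083913, and Il15ra on chromosome 2 from 11705290 to 11734317, both on the plus strand. The build used to make the deposited table is not given in the sources used here, and the genes were matched to these positions by their Ensembl identifiers. The sequences upstream of 4 genes are shown: the neighbours Cd274 and Pdcd1lg2, because their levels were the farthest apart of any pair that shares a receptor here, and Icosl and Il15ra, because C498 went with lower levels of both in LPS-treated cells. They come from RefSeq (GRCm38.p6, plus strand, 5′ to 3′), at chr19:29367188-29367437, chr19:29410669-29410918, chr10:78069118-78069301 and chr2:11705043-11705289, and end before the first base that RefSeq or GENCODE gives as transcribed. Capitals mark matches to a loose form of the κB element that NFκB binds, GGG and CC with any 5 bases between them. A further such match in Icosl runs past the end of the stretch shown.
Cd274: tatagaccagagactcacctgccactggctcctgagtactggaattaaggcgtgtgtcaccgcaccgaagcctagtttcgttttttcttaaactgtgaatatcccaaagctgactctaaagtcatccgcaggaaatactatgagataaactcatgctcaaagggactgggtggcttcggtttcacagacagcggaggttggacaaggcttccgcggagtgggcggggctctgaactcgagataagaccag
Pdcd1lg2: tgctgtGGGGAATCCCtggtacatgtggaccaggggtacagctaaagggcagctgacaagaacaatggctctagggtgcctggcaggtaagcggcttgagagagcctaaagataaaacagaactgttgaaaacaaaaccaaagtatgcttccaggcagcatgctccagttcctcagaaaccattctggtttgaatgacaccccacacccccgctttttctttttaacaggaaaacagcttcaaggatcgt
Icosl: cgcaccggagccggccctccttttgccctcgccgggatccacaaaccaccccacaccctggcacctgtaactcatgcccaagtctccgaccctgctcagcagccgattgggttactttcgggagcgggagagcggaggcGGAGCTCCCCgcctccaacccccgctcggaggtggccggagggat
Il15ra: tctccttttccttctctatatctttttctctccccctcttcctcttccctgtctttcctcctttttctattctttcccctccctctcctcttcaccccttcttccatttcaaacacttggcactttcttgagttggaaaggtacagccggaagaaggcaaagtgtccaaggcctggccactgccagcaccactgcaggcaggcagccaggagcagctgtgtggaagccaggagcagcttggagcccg

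The RefSeq table held such a window for 6 of the 9 genes, Cd80, Cd274, Pdcd1lg2, Icosl, Slamf1 and Il15ra. Over the 250 bases before the start, on either strand, the κB letters were found in 4 of the 6 (Cd80, Pdcd1lg2, Icosl and, at the other of its starts, Il15ra), and in 48.7% of the 27018 genes in the table, so this match is common. The interferon element ISRE, GAAA and GAAA with any 2 bases between them (3.46% of genes), and the STAT element GAS, TTC and GAA with any 3 bases between them (8.13% of genes) were found in 0 of the 6. The AP-1 element, TGACTCA or TGAGTCA, which are each other's reverse complement (5.16% of genes), was found at the other start of Il15ra, 30 bases before it. These matches overlapped no other motif searched, and they describe letters in this window only. The Cd80 window (38458683 to 38458932) and that of the other Il15ra start (11705462 to 11705711) lie inside the genes as GENCODE gives them.

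The values are TPM levels, transcript numbers corrected for gene length and scaled to an equal sum in every sample, so genes can be compared in level but the depth behind a value is unknown. Differences were tested with limma on log2(TPM + 1) over the 12189 genes with a mean of at least 1 TPM, and a call of upregulated or downregulated needed both a 2-fold change and an adjusted p (Benjamini-Hochberg) no greater than 0.05. SE is the standard error of a log2 change. Of the 9 ligands, 7 were tested, and the lowest value of any of them in any sample was 1.74 TPM, while Pdcd1lg2 (mean 0.415 TPM) and Slamf1 (mean 0.741 TPM) were below the limit. Macrophage markers exceeded the other marker sums in every sample, with the 8 examined summing to 12420 TPM or more. This sum was 20099 to 20590 TPM in NC, 17938 to 18472 in LPS, 15939 to 16075 in C498 and 12420 to 14208 in C498+LPS. Most of it was Lyz2, at a mean of 15986 TPM in NC and 8536 TPM in C498+LPS. Cd14 went the other way, from a mean of 244 TPM in NC to 1795 TPM in C498+LPS. The 6 mesothelial and fibroblast markers summed to 78.3 to 101.4 TPM in NC and 87.0 to 105.9 in LPS against 329.5 to 400.3 in C498 and 302.7 to 449.0 in C498+LPS. The 10 dendritic cell markers summed to 61.1 to 77.9, 66.6 to 68.5, 99.0 to 101.5 and 104.9 to 159.1 TPM in the same order, mostly Itgax and Ccr7. Xcr1, Clec9a, Cd209a and Siglech of that list were below 1 TPM in every sample, while Flt3 was at 0.30 to 0.41 TPM without C498 and 0.62 to 1.29 TPM with it, and Zbtb46 at 0.31 to 0.89 and 1.75 to 3.41 TPM. The 5 neutrophil markers summed to 207.4 to 225.0 TPM in NC, 184.3 to 205.5 in LPS, 116.3 to 125.5 in C498 and 115.1 to 139.5 in C498+LPS, and 1 of the 3 tested, Retnlg, was called downregulated in C498 vs NC (-1.64, limma adjusted p = 0.00975) and in C498+LPS vs LPS (-1.78, adjusted p = 0.00607), where 1.36% and 2.18% of all tested genes were. These calls were lost without C498 replicate 2 or when only the compared groups were fitted (adjusted p 0.0689 and 0.0632), and without LPS replicate 1 (0.0531). Most of the neutrophil sum was S100a8 and Mmp8, at means of 102.1 and 109.1 TPM in NC. The other way went S100a9 and Ly6g, which were at 0 in every NC and LPS sample. In the samples with C498, S100a9 was at 0 to 0.86 TPM. Ly6g was at 2.62 TPM in C498 replicate 2 and at 0 in every other sample. B cell, T cell, NK cell and eosinophil markers each summed to at most 13.8 TPM. The C498+LPS replicate 2 carried more of several of these than replicate 1 (B cell markers 13.8 against 4.46 TPM, mast cell markers 20.7 against 7.21 TPM). The part of these cells in the results below was not tested. In bulk RNA, fewer cells of a type and less RNA per cell cannot be told apart.

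Cd274 was the most abundant of the 9 transcripts in every group, and Pdcd1lg2, the other ligand of PD-1, was barely detected. Cd274 was at 195.1 and 126.5 TPM in the NC samples, 513.6 and 454.3 TPM in LPS, 272.7 and 254.8 TPM in C498 and 463.9 and 363.8 TPM in C498+LPS. In LPS its mean was above that of 97.1% of the tested genes. Pdcd1lg2 held 0.54 and 0.26 TPM in NC, 0.63 and 0.65 TPM in LPS, 0.26 and 0.18 TPM in C498, and 0.28 and 0.52 TPM in C498+LPS. These cells therefore held PD-1 ligand transcripts almost entirely as Cd274.

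In NC, Cd274 was followed by Il15, Cd86 and Il15ra at means of 20.6, 18.4 and 16.9 TPM, neighbours whose replicates overlapped, and then by Cd83 at 11.8, Cd80 at 8.06 and Icosl at 2.98 TPM. In LPS the order behind Cd274 was Il15 (121.6 TPM), Il15ra (78.7), Cd83 (35.3), Cd86 (32.6), Cd80 (19.4) and Icosl (16.4), with no overlap between neighbours. In C498 alone the order was Cd86 (33.9), Cd83 (28.0), Il15 (18.6), Il15ra (15.6), Cd80 (10.4) and Icosl (1.78), again without overlap. In C498+LPS, Cd83 (86.8) and Il15 (81.3) overlapped at the place behind Cd274, followed by Il15ra (44.1), Cd86 (37.8), Cd80 (27.4) and Icosl (6.75). Cd83 thus stood higher among the ligands in the C498 groups than in the groups without the compound. Slamf1 was the lowest of the 9 in NC and C498, at 0.08 and 0.07 TPM and at 0.15 and 0.08 TPM, and above Pdcd1lg2 in LPS (2.10 and 1.46 TPM) and C498+LPS (1.31 and 0.68 TPM).

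**Figure D1:**
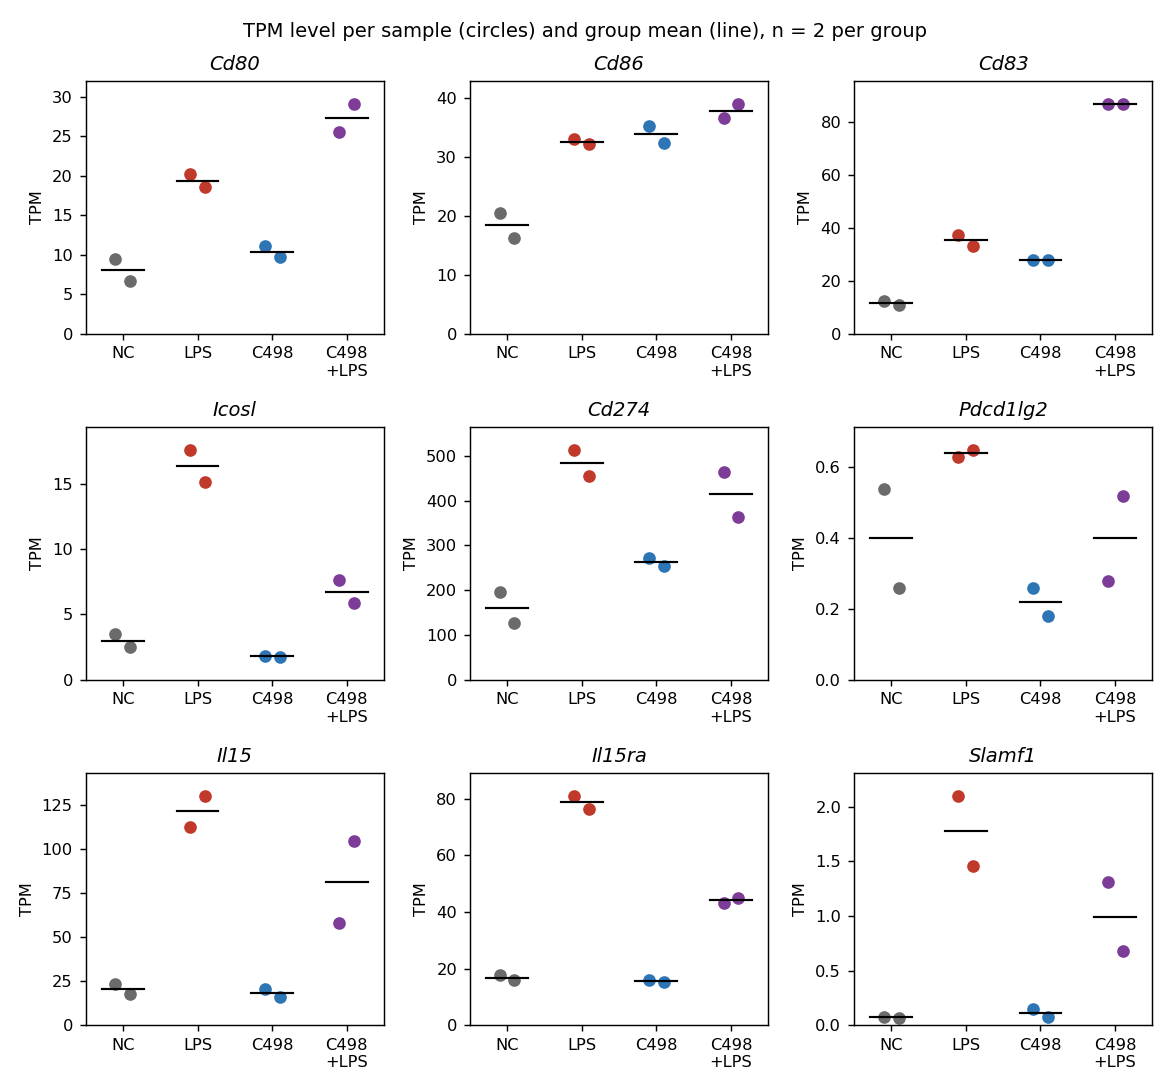
TPM level of each ligand (vertical axes in TPM from 0, scaled per gene) in the 4 groups (horizontal axes), with a circle per sample and a line at the mean of 2 samples. Cd83 was highest in the C498+LPS samples (86.8 and 86.9 TPM), whereas Icosl, Il15ra and Slamf1 were highest in the LPS samples.

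LPS raised most of these ligands, among them Cd274. In LPS vs NC, 6 of the 7 tested genes were called upregulated and 0 downregulated, where 5.55% of all tested genes were called upregulated and 6.68% downregulated. Their median log2 change was 1.61 against -0.17 over all tested genes. By adjusted p without the fold threshold, 7 of 7 were higher and 0 lower, where 9.84% of all tested genes were higher and 19.8% lower.

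The IL-15 pair and Icosl had the largest changes of the 7, Il15ra and Icosl being close to each other and in an order that depends on the scale. Il15 went from 23.4 and 17.9 TPM in NC to 112.6 and 130.5 TPM in LPS, which is 2.51 on the log2 scale (SE 0.278, limma adjusted p = 0.000883). Il15ra went from 17.8 and 16.0 TPM to 81.0 and 76.3 TPM, with a log2 change of 2.16 (SE 0.109, limma adjusted p = 2.75e-05). For both genes the groups were far apart, and the mean rose 5.89-fold for the cytokine and 4.66-fold for its presenting chain. Icosl rose from 3.46 and 2.49 TPM to 17.6 and 15.1 TPM (log2 change 2.13, SE 0.21, limma adjusted p = 0.000529), a 5.50-fold rise in the mean.

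Cd274 rose 3.01-fold in the mean, with a log2 change of 1.61 (SE 0.207, limma adjusted p = 0.00166), although its NC samples lay far apart. Cd83 rose from 12.48 and 11.03 TPM to 37.3 and 33.3 TPM, a log2 change of 1.51 (SE 0.115, limma adjusted p = 0.000157). The CD28 ligands moved least: Cd80 rose from 9.42 and 6.70 TPM to 20.2 and 18.6 TPM (log2 change 1.19, limma adjusted p = 0.0032), and Cd86 went from 20.6 and 16.3 TPM to 33.0 and 32.2 TPM, a log2 change of 0.80 (SE 0.136, limma adjusted p = 0.00518) that stayed below 2-fold and had an adjusted p of up to 0.0518 over the alternatives. For each of the 7 genes the groups did not overlap, although groups of 2 samples can also separate by chance. The share of all tested genes without such overlap was not counted. Without NC replicate 2 the change of Cd80 was 0.97, just under 2-fold, with a limma adjusted p of 0.00895 (0.000388 to 0.0444 over the alternatives). Slamf1, below the expression limit, averaged 0.075 ± 0.00707 TPM in the NC samples and 1.78 ± 0.453 TPM in those with LPS (SD, n = 2 per group), and with no limit on expression limma gave a log2 change of 1.36 with an adjusted p of 0.0109 over all genes above 0. Pdcd1lg2 gave 0.24 in that fit (limma adjusted p = 0.411).

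C498 without LPS raised Cd83, while Cd86 was higher by less than 2-fold. In C498 vs NC, 1 of the 7 tested genes, Cd83, was called upregulated and 0 downregulated, where 5.64% of all tested genes were called upregulated and 1.36% downregulated. Cd83 rose to 28.1 and 27.9 TPM from the NC values of 12.48 and 11.03 TPM, a log2 change of 1.19 (SE 0.115, limma adjusted p = 0.00113). Cd86 was at 35.3 and 32.5 TPM against 20.6 and 16.3 TPM, and its log2 change of 0.85 (SE 0.136) had a limma adjusted p of 0.00857 but missed the fold threshold. By adjusted p alone 2 of the 7 were higher and 0 lower, where 9.29% of all tested genes were higher and 6.19% lower. For Cd86 that p rose to 0.0811 without C498 replicate 1 and 0.0573 without C498 replicate 2. Of the 5 tested dendritic cell markers, Ccr7 was called upregulated in C498 vs NC (1.57, limma adjusted p = 0.0274) and Batf3 downregulated (-1.04, adjusted p = 0.0231). Each of these calls was lost under 7 of 17 alternatives, mostly the absence of 1 sample (adjusted p up to 0.155 for Ccr7 and 0.134 for Batf3). Batf3 was also called downregulated in LPS vs NC (-1.20, limma adjusted p = 0.00723), where 6.68% of all tested genes were. The part of dendritic cells in the change of Cd83 was not tested. The Cd86 level in C498 alone, 33.9 ± 2.00 TPM, overlapped that in LPS alone, 32.6 ± 0.601 TPM (SD, n = 2 per group).

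Cd274 in C498 was above both NC samples, with a log2 change of 0.74 and a limma adjusted p of 0.053. It depended on the NC sample kept: without NC replicate 1 the log2 change was 1.05 (limma adjusted p = 0.0121) and without NC replicate 2 it was 0.43 (adjusted p = 0.15), over a range of 0.0118 to 0.242. Without NC replicate 1, Cd86 also passed both thresholds, at 1.01 (limma adjusted p = 0.0055, range 0.00296 to 0.0811 over the alternatives). Cd80 differed by 0.35 (limma adjusted p = 0.233, 95% interval -0.077 to 0.77), and by 0.56 without NC replicate 1 (adjusted p = 0.0445) and 0.13 without NC replicate 2 (adjusted p = 0.613). The IL-15 pair showed differences of -0.14 for Il15 (limma adjusted p = 0.757, 95% interval -0.80 to 0.51) and -0.11 for Il15ra (limma adjusted p = 0.535, 95% interval -0.36 to 0.15), with Il15 overlapping between the groups. Icosl was at 1.81 and 1.74 TPM in C498, below both NC samples, with a log2 difference of -0.51 that missed the threshold (limma adjusted p = 0.147, 95% interval -1.002 to -0.013).

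In LPS-treated cells the compound went with opposite changes within the set: Cd83 was higher and Icosl lower. In C498+LPS vs LPS, 1 of the 7 tested genes was called upregulated and 1 downregulated, where 5.39% of all tested genes were called upregulated and 2.18% downregulated. The median log2 change of the 7 was -0.23 against 0.0065 over all tested genes. By adjusted p alone 1 was higher and 2 lower, where 9.08% of all tested genes were higher and 7.7% lower. This comparison shares the LPS samples with LPS vs NC.

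Cd83 was at 86.8 and 86.9 TPM in C498+LPS and 37.3 and 33.3 TPM in LPS, a 2.46-fold difference in the mean and a log2 change of 1.28 (SE 0.115, limma adjusted p = 0.000996). It passed both thresholds under all 17 alternatives, including without each sample. Of the 5 tested dendritic cell markers, Ccr7 and Zbtb46 were called upregulated in this comparison and 0 downregulated, where 5.39% and 2.18% of all tested genes were. Ccr7 was at 17.2 and 16.2 TPM in LPS against 46.8 and 112.2 TPM (log2 change 2.06, limma adjusted p = 0.00926), and its call was lost without LPS replicate 1 (adjusted p = 0.0704), without LPS replicate 2 (0.075) and when only the compared groups were fitted (0.053), with a change of 1.44 to 2.68 when 1 sample was left out. Zbtb46 was at 0.82 and 0.45 TPM against 2.20 and 3.41 TPM (log2 change 1.21, limma adjusted p = 0.0354), a call lost under 8 of 16 alternatives (adjusted p up to 0.171). The part of such cells in the Cd83 level was not tested. Cd80 was at 25.6 and 29.1 TPM against 20.2 and 18.6 TPM, without overlap, but its log2 change of 0.47 missed the threshold (limma adjusted p = 0.124, 95% interval 0.050 to 0.89). Cd86 was at 36.7 and 39.0 TPM against 33.0 and 32.2 TPM, with a difference of 0.21 (limma adjusted p = 0.349, 95% interval -0.11 to 0.53).

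Icosl fell from 17.6 and 15.1 TPM to 7.65 and 5.84 TPM, with a log2 change of -1.17 (SE 0.21, limma adjusted p = 0.011). Its call was lost without LPS replicate 1 (-1.07, limma adjusted p = 0.0955), without LPS replicate 2 (-1.27, adjusted p = 0.0653) and without C498+LPS replicate 2 (-1.002, adjusted p = 0.0851), over a range of 0.00292 to 0.0955, and the direction was kept in each. Il15ra was at 43.3 and 44.9 TPM against 81.0 and 76.3 TPM, a log2 change of -0.82 (SE 0.109) with a limma adjusted p of 0.00349, which is below 2-fold. Its mean was 0.560 of that in LPS, and the samples of each group lay close together. Of the 8 macrophage markers, 4 were lower and 1 higher by adjusted p alone in this comparison, where 7.7% of all tested genes were lower and 9.08% higher. The 1 higher was Cd14, at 1352 and 1250 TPM in LPS against 1797 and 1794 TPM in C498+LPS. Among the 4 lower were Adgre1 (-0.92, limma adjusted p = 0.0047), Csf1r (-0.91, adjusted p = 0.0154) and Lyz2 (-0.64, adjusted p = 0.00731). Their part in the lower Icosl and Il15ra levels was not tested.

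Il15 was at 58.0 and 104.6 TPM in C498+LPS and 112.6 and 130.5 TPM in LPS, with a log2 change of -0.63 that did not pass the threshold (limma adjusted p = 0.173, 95% interval -1.28 to 0.021). The C498+LPS samples were so far apart that the change was -1.05 without replicate 2 (limma adjusted p = 0.064) and -0.21 without replicate 1 (adjusted p = 0.623, range 0.064 to 0.623). Replicate 2, the higher of the pair, was also the higher in B cell and mast cell markers, Ccr7, Col1a1 (325.9 against 219.5 TPM) and Trac (2.53 against 0.68 TPM), and their part in the Il15 level was not tested. Cd274 overlapped between the groups and differed by -0.23 (limma adjusted p = 0.506, 95% interval -0.72 to 0.25). Slamf1 was lower in both C498+LPS samples, at a log2 difference of -0.49 with no limit on expression (limma adjusted p = 0.245), and Pdcd1lg2 at -0.23 (adjusted p = 0.454).

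**Figure D2:**
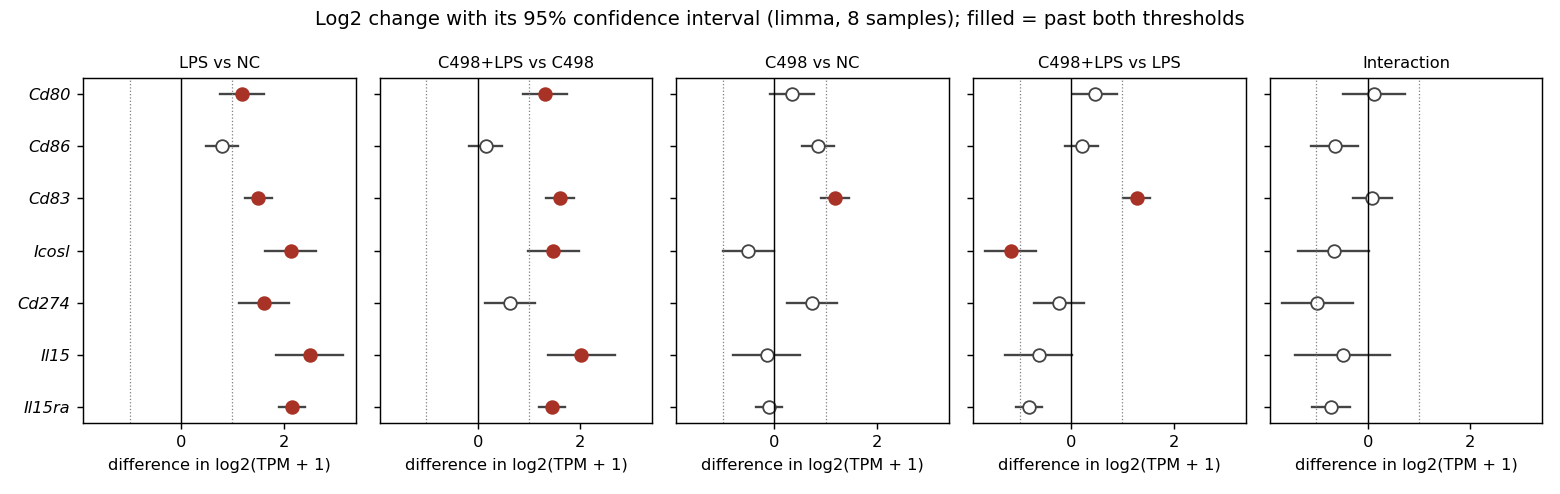
Log2 change of the 7 tested ligands (horizontal axes, difference in log2(TPM + 1)) in each of 5 comparisons, where circles are limma estimates from all 8 samples, bars 95% confidence intervals, dotted lines a 2-fold change, and filled circles pass both thresholds. Cd83 alone was called upregulated in all 4 comparisons of groups, and in C498+LPS vs LPS it stood at 1.28 while Icosl stood at -1.17.

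LPS still raised most of the ligands in cells that had received C498. In C498+LPS vs C498, 5 of the 7 tested genes were called upregulated and 0 downregulated, where 2.52% of all tested genes were called upregulated and 3.13% downregulated, and the median of the 7 was 1.44 against -0.18 over all tested genes. By adjusted p alone 5 were higher and 0 lower, where 4.51% of all tested genes were higher and 11.7% lower. Il15 had a log2 change of 2.02 (SE 0.278, limma adjusted p = 0.00463). Cd83 changed by 1.60 (SE 0.115, limma adjusted p = 0.000286), from a C498 level 2.38-fold that of NC in the mean. Icosl changed by 1.47 (limma adjusted p = 0.0053), Il15ra by 1.44 (limma adjusted p = 0.000371) and Cd80 by 1.31 (limma adjusted p = 0.00456). Cd274 was higher by 0.64 (limma adjusted p = 0.079, 0.0115 to 0.314 over the alternatives, 95% interval 0.15 to 1.13), and Cd86 by 0.16 (limma adjusted p = 0.478, 95% interval -0.16 to 0.48), starting from C498 levels that were already 1.64-fold and 1.84-fold those of NC in the mean. The count fell to 2, Cd83 and Il15ra, without C498 replicate 2, when Cd80, Icosl and Il15 had limma adjusted p of 0.0558, 0.0558 and 0.0568, and Icosl was also lost without C498 replicate 1 (adjusted p = 0.054).

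Whether the response to LPS differed under C498 was tested by the interaction, the LPS response with C498 minus that without it. By limma 0 of the 7 genes were called in either direction and 0 passed an adjusted p of 0.05 (3 had an unadjusted p under 0.05), where 0.0738% of all tested genes were called upregulated and 0.394% downregulated, and 0.0738% were higher and 0.418% lower by adjusted p alone. The differences were negative for Cd274 (-0.98, limma adjusted p = 0.295), Il15ra (-0.71, adjusted p = 0.139), Icosl (-0.66, adjusted p = 0.478), Cd86 (-0.64, adjusted p = 0.294) and Il15 (-0.49, adjusted p = 0.689). For Cd274 the 95% interval was -1.67 to -0.29, and for Il15ra -1.08 to -0.35. They were 0.13 for Cd80 (limma adjusted p = 0.883, 95% interval -0.47 to 0.72) and 0.092 for Cd83 (adjusted p = 0.867, 95% interval -0.29 to 0.47), so for Cd83 the difference made by C498 was about as large with LPS (1.28) as without it (1.19). A smaller LPS response was therefore not shown for any one ligand.

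Ligands that share a receptor were set against each other within each sample. The Cd80/Cd86 ratio of TPM levels was 0.458 and 0.412 in NC, 0.612 and 0.580 in LPS, 0.315 and 0.299 in C498, and 0.699 and 0.746 in C498+LPS. No group overlapped another, and the order from low to high was C498, NC, LPS and C498+LPS. LPS alone went with a ratio of 0.596 ± 0.0229 against 0.435 ± 0.0326 in NC, and the ratio was 0.722 ± 0.0334 in C498+LPS against 0.307 ± 0.0109 in C498 (SD, n = 2 per group). The ratios are given as a description and were not tested. Cd86 was the more abundant of the CD28 ligands in every sample.

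The Cd274/Pdcd1lg2 ratio was 361.2 and 486.4 in NC and 815.2 and 699.0 in LPS, and it was 1049 and 1415 in C498 and 1657 and 699.6 in C498+LPS, where a Pdcd1lg2 level under 1 TPM makes it uncertain. The Il15/Il15ra ratio was 1.31 and 1.12 in NC, 1.39 and 1.71 in LPS, 1.31 and 1.06 in C498, and 1.34 and 2.33 in C498+LPS. Il15 was above Il15ra in every sample, and the 2.33 of C498+LPS replicate 2 was above every other sample.

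**Figure D3:**
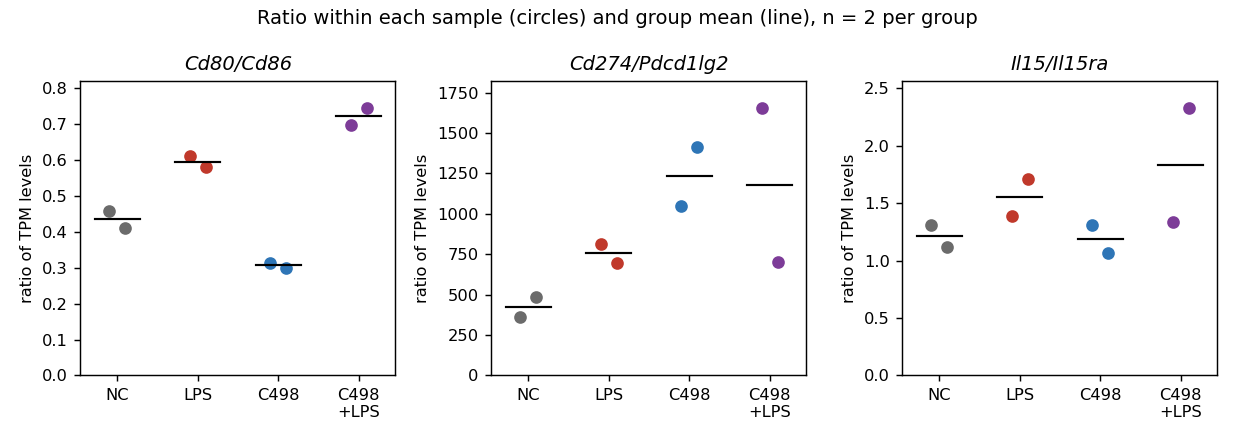
Ratio of TPM levels within each sample (vertical axes, from 0) for the ligand pairs, by group (horizontal axes), with circles for samples and lines for the mean of 2. The Cd80/Cd86 ratios of the 4 groups do not overlap, from 0.299 in a C498 sample to 0.746 in a C498+LPS sample, whereas the Il15/Il15ra ratios of NC and C498 overlap.

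The genes most like each ligand over the 8 samples, by Pearson's r on log2(TPM + 1) among 11892 other tested genes with a symbol, were Malt1 (0.997) and St3gal1 (0.997) for Cd274, Stim2 (0.991) and Hat1 (0.988) for Cd80, and Palld (0.983) and Pim1 (0.982) for Cd86. For Cd83 they were Cish (0.995), a feedback inhibitor of cytokine receptors, and F3 (0.990), which encodes tissue factor. For Icosl they were Tarm1 (0.999) and the death ligand gene Tnfsf10 (0.996). Lhx2 stood at the top for both Il15 (0.985) and Il15ra (0.996), followed by the cytokine gene Il27 (0.981) for the former and by Adora2a (0.996), an adenosine receptor gene, for the latter. The samples fall into 4 groups of 2, so r here mostly describes 4 group levels, and the highest of so many correlations is high by selection.

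The other genes of T cell costimulation changed in both directions with LPS. Of the TNF family genes, 6 of 9 were tested, with 3 upregulated and 1 downregulated in LPS vs NC, beside 5.55% and 6.68% of all tested genes. Cd40, the receptor through which helper T cells activate macrophages, rose from 20.4 and 23.7 TPM to 316.2 and 275.8 TPM (log2 change 3.69, limma adjusted p = 4.87e-06), and was at 199.9 and 182.2 TPM in C498+LPS, 0.63 lower than in LPS on the log2 scale (limma adjusted p = 0.0167, below 2-fold). Tnfsf15, which encodes TL1A, rose by 4.97 with LPS (limma adjusted p = 1.18e-05) and by 4.45 under C498 (adjusted p = 5.06e-05). Tnfsf14, which encodes LIGHT, fell from 3.52 and 2.57 TPM in NC to 0.12 and 0.14 TPM in LPS. Its log2 change was -1.83 (limma adjusted p = 0.00543), and -3.76 to -1.66 over the alternatives. In C498+LPS vs LPS, 1 of the 6 was called downregulated (2.18% of all tested genes), Tnfrsf14, a receptor for LIGHT, at 90.1 and 71.5 TPM in LPS against 40.7 and 26.8 TPM (log2 change -1.26, limma adjusted p = 0.0129), a call lost without either LPS sample or C498+LPS replicate 2 (adjusted p 0.0591 to 0.105).

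Tnfsf9, the 4-1BB ligand gene, was at 8.66 and 9.14 TPM in NC, 71.95 and 62.4 TPM in LPS, 24.9 and 29.3 TPM in C498 and 69.9 and 62.6 TPM in C498+LPS. It was raised by C498 alone (1.5, limma adjusted p = 0.000814) and by LPS (2.78, adjusted p = 2.15e-05), and its C498+LPS and LPS samples overlapped (log2 difference -0.018, limma adjusted p = 0.952, 95% interval -0.33 to 0.29). For Cd83, by comparison, both C498+LPS samples were above both with LPS alone.

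Among 8 other genes of the SLAM family, Cd48 included and all tested, 2 were called upregulated in LPS vs NC, 0 in C498 vs NC and 1 was called downregulated in C498+LPS vs LPS, beside 5.55%, 5.64% and 2.18% of all tested genes. Slamf9 fell from 22.7 and 23.9 TPM to 5.36 and 3.98 TPM, with a log2 change of -2.11 (SE 0.172, limma adjusted p = 0.000793). Slamf7, the most abundant of them in LPS at 486.3 and 425.1 TPM, rose by 1.18 in LPS vs NC (limma adjusted p = 0.00287) and not past the fold threshold without NC replicate 2 (0.94, adjusted p = 0.00992), and it differed by -0.26 in C498+LPS vs LPS (limma adjusted p = 0.368). Of the 8 other B7 and butyrophilin genes only 3 were tested, and Vsir, which encodes the inhibitory ligand VISTA, fell from 118.7 and 105.8 TPM in NC to 32.8 and 36.1 TPM in LPS (log2 change -1.68, limma adjusted p = 0.000116). Its level in C498+LPS, 37.6 and 32.5 TPM, overlapped that in LPS. Ildr2 of the same list, at 0.41 and 0.35 TPM in NC and 1.90 and 2.46 TPM in C498, was called upregulated in C498 vs NC (1.199, limma adjusted p = 0.0349). Its change was 0.90 to 2.24 over the alternatives, and the call was lost under 7 of them.

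Of the 18 tested genes among 20 nectin, galectin and other checkpoint ligands or receptors, 1 was called upregulated and 2 downregulated in LPS vs NC (5.55% and 6.68% of all tested genes), and 2 were upregulated in C498 vs NC (5.64%). In C498+LPS vs LPS, Nectin3 was called upregulated and Siglec1 downregulated, where 5.39% and 2.18% of all tested genes were, and both calls were lost without either LPS sample or C498+LPS replicate 2 (adjusted p 0.0547 to 0.0694 for Nectin3 and 0.0653 to 0.122 for Siglec1). The receptors Havcr2 (TIM-3) and Cd200r1, which restrain myeloid cells, fell in LPS vs NC by 2.13 (limma adjusted p = 0.000951) and 1.43 (adjusted p = 0.000929). Pvr and Nectin2, ligands of the receptors DNAM-1 and TIGIT, rose in C498 vs NC by 1.37 (limma adjusted p = 0.00588) and 1.28 (adjusted p = 0.0127). In C498+LPS vs LPS, Pvr was higher by 0.997 (limma adjusted p = 0.0154) and Nectin2 by 0.956 (adjusted p = 0.0304), each below 2-fold. Both are also found on stromal cells, and the mesothelial and fibroblast markers rose in the same samples, 4 of the 5 tested being called upregulated in C498 vs NC (Col1a1 by 2.04, limma adjusted p = 0.0027). The part of such cells in these values was not tested. Both calls were lost when either C498 sample was left out and when only the compared groups were fitted, with a limma adjusted p of 0.0573 to 0.065 for Pvr and 0.0541 to 0.101 for Nectin2.

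Of 4 genes that act on these ligands at the cell surface, all tested, 1 was called downregulated in C498+LPS vs LPS, where 2.18% of all tested genes were. This gene, Marchf1, a ubiquitin ligase that removes CD86 and MHC class II from the surface, fell from 26.1 and 23.4 TPM in LPS to 9.51 and 6.80 TPM in C498+LPS, by a log2 change of -1.51 (SE 0.303, limma adjusted p = 0.0162), a call that was lost without LPS replicate 1, LPS replicate 2 or C498+LPS replicate 2 and with no filter on low values (adjusted p 0.0528 to 0.127). Cmtm6, which stabilises PD-L1, averaged 73.97 TPM in LPS against 46.6 TPM in NC, a log2 change of 0.67 (limma adjusted p = 0.0195, below 2-fold). Transcripts of Cd28, Ctla4, Icos and Pdcd1, the receptors on T cells, were at 2.48 TPM or less in every sample. Of the 6 genes that receive or transmit IL-15, all tested, Stat5a was called upregulated by LPS without and with C498 (1.88 and 2.23, limma adjusted p = 0.000813 and 0.000908), 1 of 6 in each, where 5.55% and 2.52% of all tested genes were. Il2rg was at 215.5 to 284.4 TPM in all samples, while Il2rb, the chain that makes a cell responsive to presented IL-15, was at 0.99 to 3.52 TPM. All 3 SLAM adaptor genes were below 1 TPM in every sample.

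**Figure D4:**
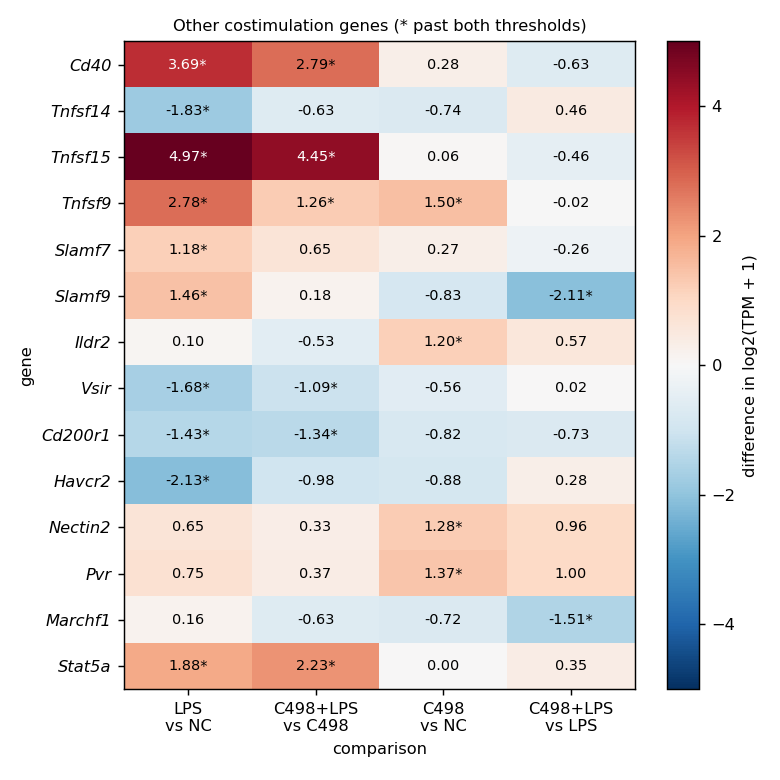
Log2 change, as the difference in log2(TPM + 1) printed in each cell and coded by colour, of 14 other costimulation genes (vertical axis) in 4 comparisons (horizontal axis), with a star where both thresholds were passed. Tnfsf15 and Cd40 have the largest positive changes with LPS (4.97 and 3.69), and Slamf9 the largest negative change in C498+LPS vs LPS (-2.11).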

How the data were processed

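RNA of 8 samples was sequenced by the authors. The authors used fastp for read filtering, HISAT2 for alignment, StringTie for assembly and RSEM for quantification, and deposited TPM values per gene and sample (and the mean of each group, not used here). Versions, genome build and annotation are not given in the sources used here. TPM keeps no record of read number, so no interval for counting error can be given and the authors' DESeq2 test on counts was not repeated.

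Values were transformed as log2(TPM + 1). Genes averaging 1 TPM or more over the samples (12189) were fitted with limma 3.58.1 in R 4.3.3 (1 mean per group, all 8 samples, 4 residual degrees of freedom, variance trend on mean expression), with Benjamini-Hochberg adjustment over these genes in each comparison. The thresholds were a fold change of 2 and an adjusted p of 0.05. The steps were tested on simulated data. Figures used matplotlib 3.10.9.

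The ligands and the gene lists were chosen with earlier results of these data known. Named from the lists were up to 4 genes per list that were called in at least 1 comparison, by the smallest adjusted p, besides markers of cell types; Cmtm6, Il2rg, Il2rb, Nectin3, Siglec1 and Tnfrsf14 were added after their values were seen. Also named were the 2 genes most like each tested ligand. Alternatives were a pseudocount of 0.1, no filter, a mean TPM of at least 5, median centring, quantile normalization, the replicate number as a block, no variance trend, fitting just the compared groups, no fold change threshold, and each sample left out, where a lone sample is assumed to vary like the other groups. Their extension to the list and marker genes was chosen after seeing the data.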

Additional observations from a re-analysis of the deposited data

Results flagged for a closer look

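Of 75 list and marker genes tested beside the ligands, 2 passed both thresholds in the interaction, where 0.0738% of all tested genes were called upregulated and 0.394% downregulated, and both calls were lost under most alternatives. For Tnfsf9 the response under C498 minus that in vehicle was -1.52 on the log2 scale (SE 0.188, limma adjusted p = 0.0295), from responses of 1.26 and 2.78. Over the alternatives its adjusted p was 0.0194 to 0.166, and the call was lost under 12 of 16 of them, including the absence of each of the 8 samples. For Cd14, a co-receptor for LPS, the difference was -1.001 (SE 0.113, limma adjusted p = 0.0214), from responses of 1.41 and 2.41, and the call was lost under 10 of 16 alternatives, with adjusted p from 0.016 to 0.149. Both were already higher in C498 alone than in NC. None of the 9 ligands met this criterion, and groups of 2 samples were too small to look for outlying samples.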

How the results depend on the processing

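Over 588 recomputed log2 changes of the 7 tested ligands, 572 kept their direction and their side of the thresholds, 8 lost a call, 5 gained one and 3 changed sign, all of the last near 0. Il15 in C498 vs NC (-0.14) was 0.039 without NC replicate 1 and 0.022 without C498 replicate 2, over -0.33 to 0.039 with each sample left out, and Cd80 in the interaction (0.13) was -0.092 without NC replicate 1, over -0.092 to 0.34. The number of ligands called in C498 vs NC went from 1 to 2 without a fold change threshold. Leaving out 1 sample gave 5 to 6 ligands in LPS vs NC, 1 to 3 in C498 vs NC, 1 to 2 in C498+LPS vs LPS and 2 to 5 in C498+LPS vs C498, against 6, 1, 2 and 5 with all samples, and 0 in the interaction throughout. The replicate numbers are not stated to mark shared mice or days, the deviations of same-numbered samples from their group means correlated at 0.0397 to 0.168 between groups, and with the replicate number as a block the counts of ligands were 6, 1, 2, 5 and 0, as without it. Centring samples on their median gene took the median log2 change of all genes in LPS vs NC from -0.17 to -0.000539 and that in C498+LPS vs C498 from -0.18 to 0.038, and changed no call of a ligand. It moved all calls from 677 up and 814 down to 853 and 530 in LPS vs NC, from 687 and 166 to 565 and 269 in C498 vs NC, and from 307 and 381 to 434 and 196 in C498+LPS vs C498.

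Counts over all genes moved by more than 1.5 times as follows. Without a fold change threshold they went from 1491 to 3609 in LPS vs NC, 853 to 1886 in C498 vs NC, 923 to 2045 in C498+LPS vs LPS and 688 to 1980 in C498+LPS vs C498. A mean TPM of at least 5 gave 566 in C498 vs NC and 594 in C498+LPS vs LPS, a fit of only the groups compared 379 in C498 vs NC, and the interaction went from 57 to 18 without a filter and to 12 without a variance trend. Leaving out 1 sample gave 345 to 1381 in C498 vs NC, 470 to 956 in C498+LPS vs LPS, 366 to 720 in C498+LPS vs C498 and 9 to 92 in the interaction. The cause was not tested. The depth behind the TPM values is unknown, which limits Pdcd1lg2 and Slamf1 most.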
